A study of Homo sapiens with 6 samples.

Results

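The genes examined here encode the subunits of the Polycomb complexes PRC1 and PRC2 and of the Polycomb deubiquitinase PR-DUB. They were taken by symbol from a list of 33 subunit genes that was chosen with earlier results of these data known. All 33 of them were found among the 27968 genes of the tables and passed the filter on low counts. RNA was measured in H23, a human lung adenocarcinoma cell line, in 2 groups of 3 libraries. Cells of the first group were transfected with an siRNA against HOTAIR-N, a variant of HOTAIR, which is a long non-coding RNA, and cells of the second with a control siRNA. Both siRNAs were delivered with RNAiMAX, total RNA was taken 48 h later, and every library came from a transfection of its own, so the spread between libraries is that between transfections of 1 cell line. The sequences of the siRNAs were not used here.

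Polycomb complexes keep genes silent by marking their chromatin. PRC2 methylates H3K27 through EZH2 or its relative EZH1, an activity that also requires SUZ12 and EED, and PRC1 attaches ubiquitin to histone H2A through RING1 or RNF2. Canonical PRC1 recognises the PRC2 mark through a CBX protein, variant PRC1 contains RYBP or YAF2 in place of a CBX protein, and PR-DUB, built on BAP1, removes ubiquitin from H2A. HOTAIR is known for its binding to PRC2, and EZH2 is often abundant in dividing tumour cells.

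The libraries held 32715361 to 36578681 expected counts (estimated reads per gene). HOTAIR had 88, 74 and 82 expected counts with HOTAIR-N siRNA, against 169, 148 and 202 with control siRNA, a log2 fold change of -1.04 ± 0.14 (SE). The groups did not overlap, and the smallest p that an exact permutation test of 3 against 3 libraries can give, 0.1 (two-sided), was reached. Log2 CPM correlated at 0.997 or more within a group and at 0.983 or less between groups. The chi-square of the counts of a pair of libraries was taken per degree of freedom. For HOTAIR-N siRNA replicate 1 it was 5.66 and 4.01 against the others of its group, and 2.05 between those. For control replicate 1 it was 14.0 and 12.7 against the other controls, and 6.75 between those. In each group replicate 1 thus stood furthest from the others, with larger values among the controls. Of the markers of the labelled cell type, KRT8 and KRT18, keratins of simple epithelia, were at 1334 TPM or more in every library (TPM is a level adjusted for transcript length and scaled to the same total in each library), NKX2-1, the lung lineage factor, was between 1.06 and 3.02 TPM, and the surfactant gene SFTPC was at 0 in 5 of the 6 libraries. KRT18 fell by 0.71 in log2 terms, and NKX2-1, KRT7 and CDH1 rose by 1.02, 1.05 and 1.07, so that of 8 tested markers of lung adenocarcinoma 3 rose, 1 fell and 4 did not pass. Of the 5 immune markers, CD3E and MS4A1 were at 0 in every library and PTPRC at or under 0.01 TPM, whereas the macrophage markers CD68 and CD14 were at 7.13 to 9.32 and 1.73 to 2.96 TPM. Further, the endothelial marker PECAM1 and the fibroblast marker DCN were at or under 0.02 TPM, whereas COL1A1, a collagen that fibroblasts make in quantity, was at 11.8, 12.1 and 12.5 TPM with HOTAIR-N siRNA and at 4.21, 3.90 and 3.75 TPM with control siRNA. Of the tested markers of other cells, 2 of 3 for fibroblasts rose (COL1A1 and LUM), as did 1 of 2 for endothelium (VWF, at most 0.12 TPM) and none of 2 for immune cells. Among all tested genes 28.7% rose. The part of these markers in the Polycomb values was not tested.

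Sequences are given first for Polycomb genes that hold an E2F word in the promoter or either of a pair of words in the 3′ UTR, because these letters are referred to in the results. The genes were picked by holding a word, but the 3′ UTR words themselves were chosen in earlier work on the same fold changes. Promoters were taken from RefSeq (GRCh38.p14, 250 bases before to 50 after the start) and were present for 30 of the 33 genes. E2F factors are known regulators of EZH2 and other PRC2 genes, so the promoters were searched on both strands for the E2F words TTTGGCGC, TTTGCCGC, TTTCGCGC and TTTCCCGC. The 5 promoters that hold one belong to PRC2 genes, and they are shown whole for EZH2 and SUZ12 and around the word for the rest. Capitals mark the E2F word, on the strand of the gene, and in MTF2 and EZH1 it is the reverse complement.
EZH2 (chr7:148884242-148884541, minus strand): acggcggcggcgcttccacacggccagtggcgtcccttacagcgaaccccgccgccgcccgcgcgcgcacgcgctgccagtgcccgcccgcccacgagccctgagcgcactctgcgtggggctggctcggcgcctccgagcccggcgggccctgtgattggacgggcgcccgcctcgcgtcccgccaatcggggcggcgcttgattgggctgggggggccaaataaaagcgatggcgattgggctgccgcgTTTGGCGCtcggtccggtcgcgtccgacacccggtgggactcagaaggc
SUZ12 (chr17:31936757-31937056, plus strand): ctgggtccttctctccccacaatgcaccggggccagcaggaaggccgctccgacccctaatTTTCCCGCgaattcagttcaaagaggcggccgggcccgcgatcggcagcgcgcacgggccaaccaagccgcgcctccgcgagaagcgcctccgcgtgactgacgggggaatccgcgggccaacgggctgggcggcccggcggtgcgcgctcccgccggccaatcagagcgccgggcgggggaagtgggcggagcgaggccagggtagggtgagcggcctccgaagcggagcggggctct
AEBP2 (chr12:19440429-19440476, plus strand): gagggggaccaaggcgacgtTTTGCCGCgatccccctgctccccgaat
MTF2 (chr1:93079268-93079315, plus strand): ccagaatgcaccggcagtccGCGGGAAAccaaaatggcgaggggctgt
EZH1 (chr17:42745128-42745175, minus strand): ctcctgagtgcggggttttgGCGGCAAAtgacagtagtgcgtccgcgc
The word began 1 base after the start in EZH2, 189 bases before the start in SUZ12, 150 before it in AEBP2 and 115 before it in EZH1, and 5 bases after it in MTF2. One of these words was found in 16.7% of the Polycomb promoters, against 3.33% of all 27305 promoters of the same length and 5.24% of the 11268 that belong to tested genes. The words were searched because E2F factors are known to act on PRC2 genes, so this share is a description only. Of the 5 genes, EZH2, SUZ12, AEBP2 and MTF2 fell with HOTAIR-N siRNA and EZH1 rose. Among all tested genes 28.8% fell and 28.7% rose, and the calls among all genes with an E2F word were not counted. The word TTTGAA, known as CHR from cell cycle genes, was present in 13.3% of the Polycomb promoters, against 15.4% of all promoters and 9.82% of those of tested genes. CCAAT was present in 43.3%, against 35.7% of all and 36.2% of those of tested genes, and no match of either overlapped an E2F word.

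A second set of sequences comes from 3′ UTRs, the stretches behind the coding part of a transcript where small RNAs pair with it. The 7-base words GACCAAT and ACCAATA were chosen in earlier work on the same fold changes, so the counts that follow describe these genes and do not count as separate evidence. The sites below come from the GENCODE release 29 transcript that is paired with the named RefSeq isoform (GRCh38). Capitals mark the word or, in PHF19, both words where they overlap.
SUZ12 NM_015355 (chr17:32000106-32000132, plus strand): attaacaagcACCAATAggtttttatt
AEBP2 NM_153207 (chr12:19520157-19520183, plus strand): attcttaattGACCAATgattgtagac
PHF19 NM_001009936 (chr9:120869605-120869632, minus strand): ggaataacggGACCAATAaatgatgctt
CBX2 NM_005189 (chr17:79787527-79787553, plus strand): tcttatgtttACCAATAaataaaagta
SCMH1 NM_001172219 (chr1:41027202-41027224, minus strand): ataaataaaaACCAATAtagata
RYBP NM_012234 (chr3:72376076-72376102, minus strand): tgcttattgaACCAATAactgttggta
YAF2 NM_005748 (chr12:42159451-42159477, minus strand): atgtaaaattACCAATAaaatattttt
The SCMH1 site is also held by other SCMH1 isoforms, among them NM_001031694, the most abundant. The SCMH1 isoform named above is the one with the largest fall. A further gene, PHC3, holds 2 such sites. In all, 8 of the 33 genes (24.2%) held a word, against 10.3% of the 13420 tested genes that were searched.

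With HOTAIR-N siRNA the Polycomb genes moved in both directions. By edgeR's quasi-likelihood test with Benjamini-Hochberg adjustment over all 15072 tested genes and a threshold of 0.05, 9 of the 33 rose, 13 fell and 11 did not pass. That is 66.7% called, where 57.5% of all tested genes were called, with 27.3% higher against 28.7% of all genes and 39.4% lower against 28.8% of all genes. The change was widespread in these libraries, so a call alone does not set a Polycomb gene apart. The median log2 fold change was -0.05 over the 33 genes and 0.01 over all genes, and the members ranged from -1.06 for SUZ12 to 0.57 for PCGF5. In 23 of the 33 genes (69.7%) the CPM of the groups did not overlap, against 62.9% of all tested genes. In bulk RNA, fewer cells that express a gene and less of its RNA per cell cannot be told apart.

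**Figure D1:**
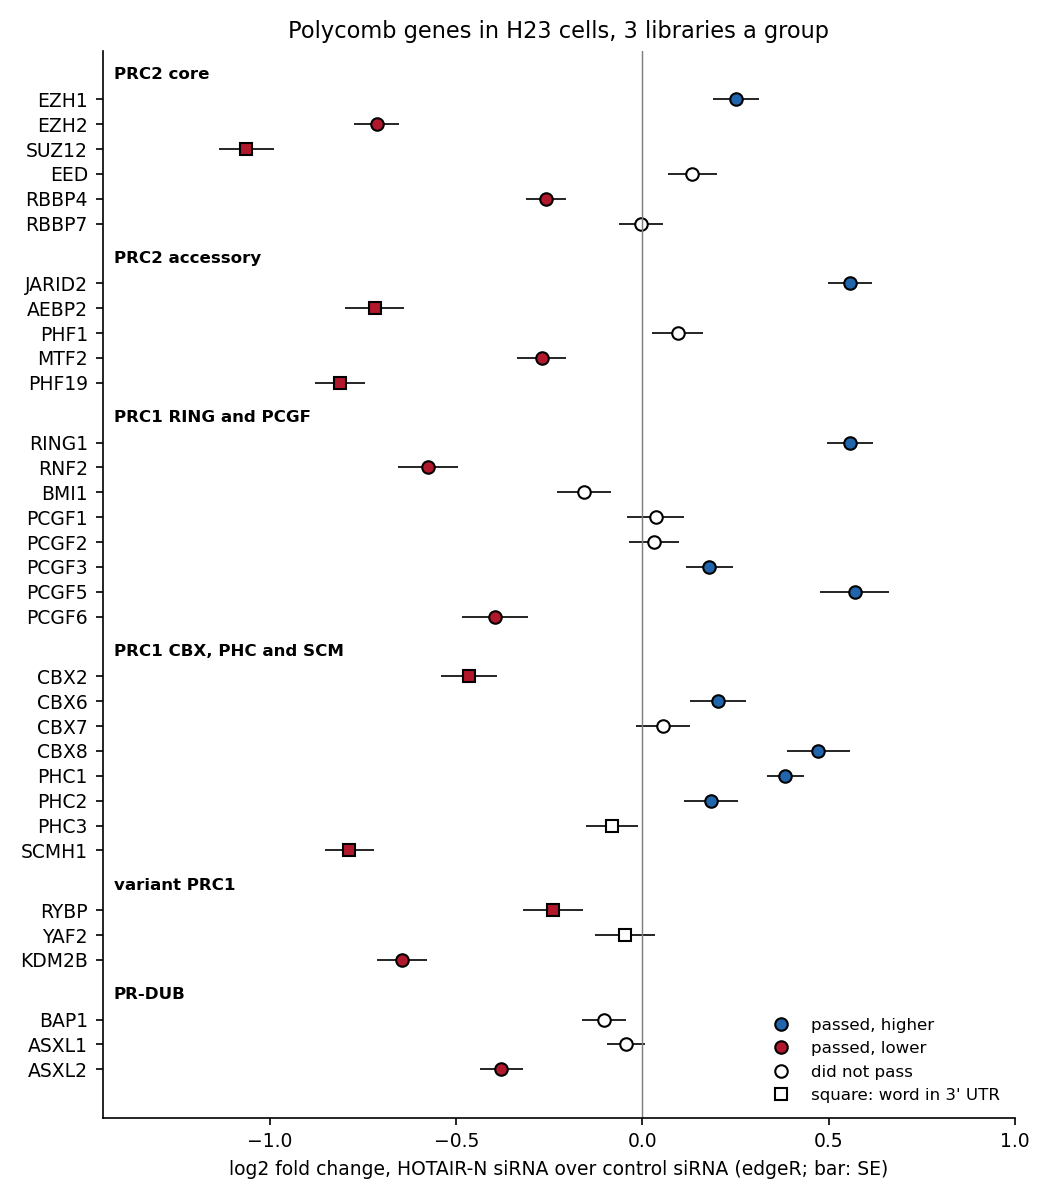
Log2 fold change (x axis, HOTAIR-N siRNA over control siRNA, bar: SE) of the 33 Polycomb genes, ordered by role. Filled points passed edgeR's test, and squares mark genes with a word in the 3′ UTR. SUZ12 lies furthest left at -1.06, and each group of PRC1 and PRC2 subunits except variant PRC1 holds points on both sides of 0.

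In the core of PRC2, EZH2 and SUZ12 were lower with HOTAIR-N siRNA and EZH1 was higher. EZH2, the main H3K27 methyltransferase of dividing cells, had 39.1, 35.9 and 37.0 TPM with HOTAIR-N siRNA, against 61.0, 63.9 and 64.8 TPM with control siRNA. The groups were far apart, with a mean of 59.1% of the control level. EZH2 fell by 0.71 ± 0.06 (SE) in log2 (edgeR adjusted p = 1.51e-07). SUZ12, the scaffold on which the complex is assembled, had 33.9, 30.6 and 32.1 TPM with HOTAIR-N siRNA, against 59.7, 76.6 and 72.2 TPM with control siRNA. Every HOTAIR-N siRNA library was below the lowest control, which was replicate 1. It fell by 1.06 ± 0.07 (SE) in log2 (edgeR adjusted p = 1.83e-08), the only one of the 33 genes to fall or rise by 1 or more.

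EZH1, the methyltransferase that prevails in resting cells, had 19.7, 18.5 and 19.5 TPM with HOTAIR-N siRNA, against 16.6, 16.7 and 16.7 TPM with control siRNA. The difference was small but clear of the spread, at 0.25 ± 0.06 (SE) in log2 (edgeR adjusted p = 0.00271). RBBP4, a histone-binding subunit shared with other complexes, had 58.1, 57.6 and 56.8 TPM with HOTAIR-N siRNA, against 65.0, 75.5 and 72.1 TPM with control siRNA, and fell by 0.26 (edgeR adjusted p = 0.000809). Its relative RBBP7 was the most abundant of the 33 genes and had the largest p. RBBP7 had 142, 135 and 131 TPM with HOTAIR-N siRNA, against 134, 141 and 147 TPM with control siRNA, and the groups overlapped. EED, which reads the H3K27 mark, averaged 30.2 ± 0.16 TPM with HOTAIR-N siRNA and 28.5 ± 2.4 TPM with control siRNA (SD, n = 3 each), and did not pass (edgeR adjusted p = 0.0923, and 0.0477 with upper-quartile scaling).

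The accessory subunits, which direct PRC2 to chromatin or tune its activity, fell in 3 of 5 cases and rose in 1. That is 80% called, where 57.5% of all tested genes were called. JARID2, a substrate and recruiter of PRC2, had 18.0, 19 and 18.2 TPM with HOTAIR-N siRNA, against 12.7, 12.8 and 12.8 TPM with control siRNA. The control values lay within 0.1 TPM of each other and all HOTAIR-N siRNA values above them, and JARID2 rose by 0.56 ± 0.06 (SE) in log2 (edgeR adjusted p = 1.5e-06). AEBP2, a zinc finger protein found with JARID2 in one form of PRC2, went the other way. It had 16.0, 15.3 and 17.3 TPM with HOTAIR-N siRNA, against 23.5, 31.1 and 28.98 TPM with control siRNA, and fell by 0.72 ± 0.08 (SE) in log2 (edgeR adjusted p = 2.14e-06). The groups did not overlap.

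PHF1, MTF2 and PHF19 are the Polycomb-like proteins, alternatives to one another in the second form of PRC2. PHF19 had 36.9, 34.9 and 35.9 TPM with HOTAIR-N siRNA, against 83.2, 75.8 and 71.5 TPM with control siRNA. That is 46.7% of the control mean in TPM, while the fit, which works on counts and not per length, gave a fall of 0.81 ± 0.07 (SE) in log2 (edgeR adjusted p = 1.02e-07). MTF2 had 21.95, 21.9 and 22.4 TPM with HOTAIR-N siRNA, against 24.5, 30.0 and 28.3 TPM with control siRNA, and fell by 0.27 (edgeR adjusted p = 0.00275). PHF1 averaged 24.9 ± 0.026 TPM with HOTAIR-N siRNA and 24.0 ± 0.96 TPM with control siRNA (SD, n = 3 each), and did not pass. Over the 11 genes of PRC2, 2 rose, 6 fell and 3 did not pass, with a median log2 fold change of -0.26, where 28.7% of all tested genes rose and 28.8% fell. That is 18.2% of the PRC2 genes higher and 54.5% lower.

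**Figure D2:**
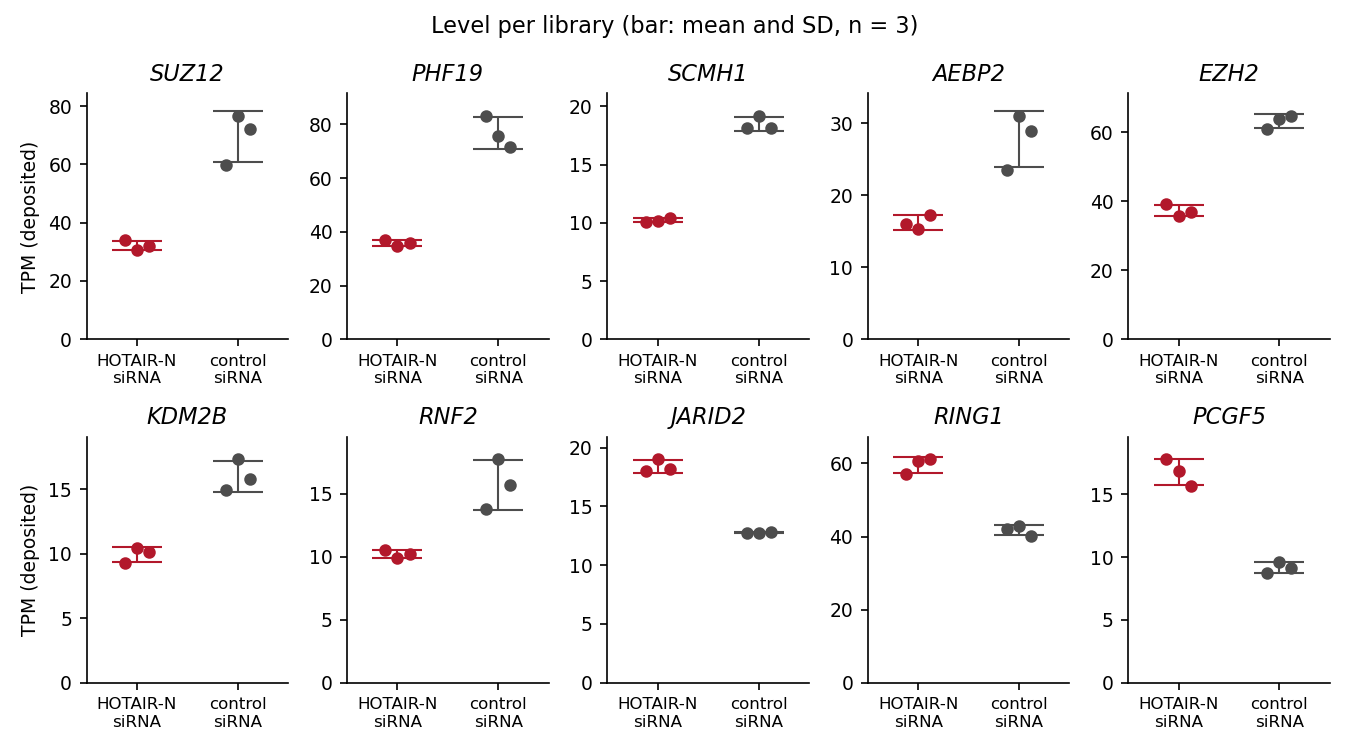
TPM (y axis, from 0) in each library for the 10 genes that passed the test with an absolute log2 fold change of at least 0.5. HOTAIR-N siRNA libraries are on the left and control siRNA libraries on the right of each panel, with mean and SD (n = 3). No panel shows an overlap between the groups.

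Of the RING and PCGF subunits, which form the catalytic core of PRC1, 3 rose, 2 fell and 3 did not pass. That is 62.5% called, against 57.5% of all tested genes. The interchangeable ubiquitin ligases went in opposite directions. RING1 had 57.0, 60.6 and 61.1 TPM with HOTAIR-N siRNA, against 42.2, 42.9 and 40.1 TPM with control siRNA, a rise of 0.56 ± 0.06 (SE) in log2 (edgeR adjusted p = 2.15e-06). RNF2 had 10.5, 9.90 and 10.2 TPM with HOTAIR-N siRNA, against 13.8, 17.7 and 15.7 TPM with control siRNA, and fell by 0.58 ± 0.08 (SE) in log2 (edgeR adjusted p = 2.19e-05). Neither gene had overlapping groups.

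A PCGF protein pairs with the ligase and sets the type of PRC1. PCGF5, of a variant PRC1, had 17.8, 16.8 and 15.7 TPM with HOTAIR-N siRNA, against 8.70, 9.61 and 9.16 TPM with control siRNA, and rose by 0.57 ± 0.09 (SE) in log2 of counts (edgeR adjusted p = 0.000105). Most of this RNA was assigned to transcripts annotated as non-coding. The coding isoforms made up 6.70%, 7.32% and 9.26% of PCGF5 TPM with HOTAIR-N siRNA, against 12.7%, 18.0% and 12.01% with control siRNA. Their expected counts, 146, 153 and 192 with HOTAIR-N siRNA against 143, 209 and 144 with control siRNA, overlapped. The non-coding NR_046310 and NR_046435 had higher TPM in all HOTAIR-N siRNA libraries than in any control but did not pass (edgeR adjusted p = 0.186 and 0.0569), and no isoform of PCGF5 passed.

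PCGF3 had 11.53, 11.47 and 11.45 TPM with HOTAIR-N siRNA, against 10.53, 10.41 and 10.31 TPM with control siRNA, and rose by 0.18 (edgeR adjusted p = 0.0228). PCGF6, of the variant complex that holds MGA and MAX, averaged 15.9 ± 1.7 TPM with HOTAIR-N siRNA and 21.7 ± 2.4 TPM with control siRNA (SD, n = 3 each), and fell by 0.40 (edgeR adjusted p = 0.00132). BMI1 and PCGF2, the PCGF proteins of canonical PRC1, and PCGF1 did not pass. PCGF2 had 27.8, 30.8 and 30.7 TPM with HOTAIR-N siRNA, against 30.9, 29.8 and 29.3 TPM with control siRNA, and the groups overlapped. BMI1 shares its sequence with the readthrough gene COMMD3-BMI1, as SUZ12 does with SUZ12P1, so the division of their reads is uncertain. COMMD3-BMI1 and SUZ12P1 had log2 fold changes of -0.20 and -0.03 and did not pass.

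Among the CBX, PHC and SCM subunits of canonical PRC1, 4 rose, 2 fell and 2 did not pass (75% called, against 57.5% of all tested genes). The CBX proteins, which read the H3K27 mark, were divided. CBX2 had 11.01, 12.2 and 11.9 TPM with HOTAIR-N siRNA, against 17.4, 17.3 and 14.96 TPM with control siRNA, and fell by 0.47 (edgeR adjusted p = 8.71e-05). CBX8 had 26.7, 30.1 and 30.7 TPM with HOTAIR-N siRNA, against 23.4, 21.6 and 19.96 TPM with control siRNA, and rose by 0.47 (edgeR adjusted p = 0.000213). In both genes the groups were apart. CBX6 averaged 23.8 ± 2.4 TPM with HOTAIR-N siRNA and 21.3 ± 1.5 TPM with control siRNA (SD, n = 3 each), and rose by 0.20 (edgeR adjusted p = 0.0310) although the TPM of its groups overlapped. CBX7 averaged 7.57 ± 0.17 TPM with HOTAIR-N siRNA and 7.55 ± 0.056 TPM with control siRNA (SD, n = 3 each), and did not pass.

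The polyhomeotic proteins PHC1, PHC2 and PHC3 and the related SCMH1 join PRC1 complexes to one another through their SAM domains. PHC1, the most abundant of the 4, had 64.4, 65.6 and 63.8 TPM with HOTAIR-N siRNA, against 49.97, 52.4 and 50.6 TPM with control siRNA, and rose by 0.38 (edgeR adjusted p = 1.22e-05). SCMH1 had 10.1, 10.2 and 10.4 TPM with HOTAIR-N siRNA, against 18.1, 19.2 and 18.2 TPM with control siRNA. It fell by 0.79 ± 0.07 (SE) in log2 (edgeR adjusted p = 1.23e-07), to 55.3% of the control mean. PHC2 averaged 54.0 ± 3.2 TPM with HOTAIR-N siRNA and 49.7 ± 3.9 TPM with control siRNA (SD, n = 3 each), and rose by 0.18 (edgeR adjusted p = 0.0395) with overlapping groups. PHC3, the least abundant of the 33 genes at 4.20 ± 0.13 TPM with HOTAIR-N siRNA and 4.58 ± 0.41 TPM with control siRNA (SD, n = 3 each), did not pass.

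In variant PRC1, KDM2B, which brings a variant PRC1 to unmethylated CpG islands, had 9.30, 10.4 and 10.1 TPM with HOTAIR-N siRNA, against 14.97, 17.3 and 15.8 TPM with control siRNA. All libraries with HOTAIR-N siRNA were lower, and KDM2B fell by 0.64 ± 0.07 (SE) in log2 (edgeR adjusted p = 1.19e-06). RYBP, which binds ubiquitylated H2A, averaged 11.5 ± 0.23 TPM with HOTAIR-N siRNA and 14.0 ± 1.9 TPM with control siRNA (SD, n = 3 each), and fell by 0.24 (edgeR adjusted p = 0.0192). YAF2, its relative, had 6.76, 6.14 and 7.06 TPM with HOTAIR-N siRNA, against 6.71, 7.63 and 7.64 TPM with control siRNA, and did not pass as a gene. Over the 19 genes of PRC1, canonical and variant, 7 rose, 6 fell and 6 did not pass, with a median log2 fold change of 0.03. That is 36.8% higher and 31.6% lower, against 28.7% and 28.8% of all tested genes.

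In PR-DUB, ASXL2 had 18.5, 18.4 and 18.8 TPM with HOTAIR-N siRNA, against 22.6, 27.4 and 24.7 TPM with control siRNA, and fell by 0.38 (edgeR adjusted p = 5.61e-05). ASXL2 and ASXL1 are alternative partners that activate BAP1, the deubiquitinase itself. BAP1 averaged 34.2 ± 0.87 TPM with HOTAIR-N siRNA and 37.8 ± 1.8 TPM with control siRNA (SD, n = 3 each), with a log2 fold change of -0.10, and did not pass. ASXL1 averaged 41.9 ± 0.39 TPM with HOTAIR-N siRNA and 43.8 ± 1.8 TPM with control siRNA (SD, n = 3 each), with a log2 fold change of -0.04, and did not pass. The groups did not overlap in any of the 3 genes, where the CPM of 62.9% of all tested genes did not overlap.

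The calls of PCGF3, CBX6, PHC2 and RYBP, all with an absolute log2 fold change under 0.25, were each lost when certain single libraries were left out. The edgeR adjusted p of PCGF3 was 0.0560 to 0.0792 without any 1 HOTAIR-N siRNA library or without control replicate 2 or 3. Without HOTAIR-N siRNA replicate 2 or 3, or control replicate 2 or 3, it was 0.0696 to 0.147 for CBX6 and 0.0940 to 0.178 for PHC2. For RYBP it was 0.0668 to 0.0888 without HOTAIR-N siRNA replicate 2 or control replicate 2 or 3. Against a fold of at least 1.5, SUZ12, PHF19 and SCMH1 passed as lower and no Polycomb gene passed as higher, where 5.77% of all tested genes passed as lower. Without control replicate 1, 10 of the 33 genes rose and 14 fell, counts not set beside those over all genes in that fit. PHF1 was added among the higher and BMI1 among the lower (edgeR adjusted p = 0.0446 and 0.00436).

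Because several subunits are alternatives to one another, the levels of 6 related pairs were compared as ratios of TPM within each library. The ratio of EZH2 to EZH1 was 1.99, 1.94 and 1.90 with HOTAIR-N siRNA, against 3.67, 3.83 and 3.89 with control siRNA. EZH2 thus remained the more abundant of the pair in every library, at a ratio lower by 0.97 on the log2 scale. The ratio of RNF2 to RING1 was 0.184, 0.163 and 0.167 with HOTAIR-N siRNA, against 0.326, 0.413 and 0.390 with control siRNA, a log2 difference of -1.13. RING1 was the more abundant of that pair in every library. The ratio of ASXL2 to ASXL1 was 0.443 ± 0.0036 with HOTAIR-N siRNA and 0.567 ± 0.033 with control siRNA, and that of RBBP4 to RBBP7 0.424 ± 0.013 with HOTAIR-N siRNA and 0.504 ± 0.028 with control siRNA (SD, n = 3 each).

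These 4 ratios did not overlap between the groups, which gives p = 0.1 in the exact two-sided permutation test, the smallest that 3 against 3 libraries allow, and 0.15 after adjustment over the 6 pairs. The ratio of BMI1 to PCGF2 was 0.618 ± 0.054 with HOTAIR-N siRNA and 0.704 ± 0.089 with control siRNA, and that of RYBP to YAF2 1.73 ± 0.090 with HOTAIR-N siRNA and 1.91 ± 0.13 with control siRNA (SD, n = 3 each). Both overlapped (exact permutation p = 0.2, adjusted 0.2).

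**Figure D3:**
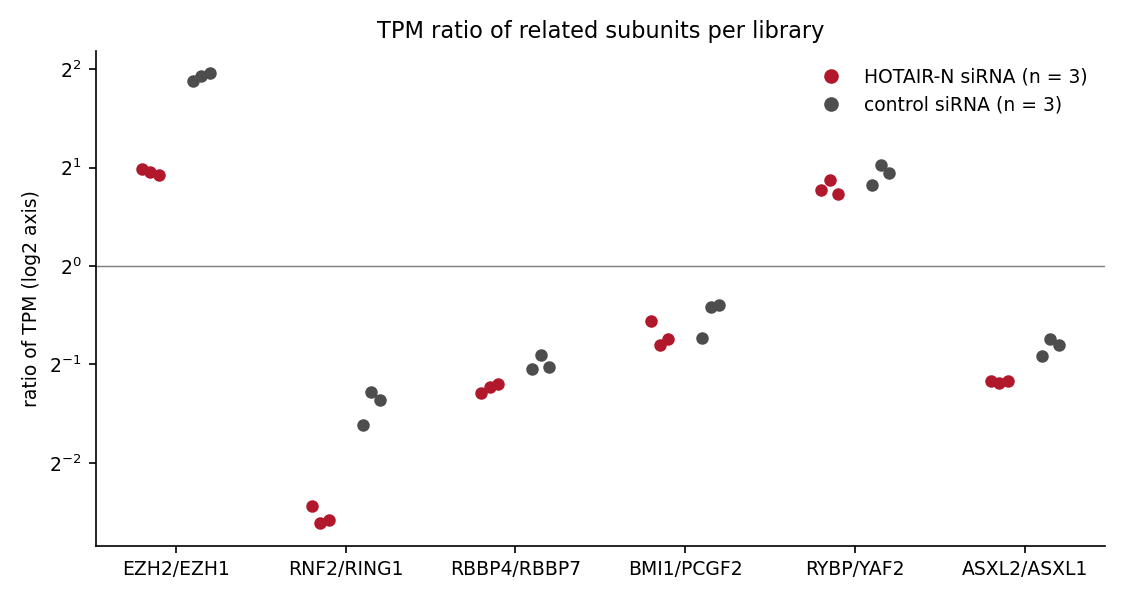
Ratio of TPM of 6 related pairs of subunits in each library (y axis, log2 scale), HOTAIR-N siRNA to the left of control siRNA. The groups are separate for EZH2/EZH1, RNF2/RING1, RBBP4/RBBP7 and ASXL2/ASXL1, and overlap for BMI1/PCGF2 and RYBP/YAF2.

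The isoform tables list 97 isoforms of these genes, of which 84 passed the filter on low counts. By edgeR's quasi-likelihood test with adjustment over all 32627 tested isoforms, 11 rose and 16 fell, in 18 genes. That is 32.1% called against 19.5% of all isoforms, with 9.39% of all isoforms called higher and 10.1% lower. RING1 is annotated in several copies on alternative haplotypes of its region, and 4 identical copies passed, so that 8 isoforms rose when these are counted once. Isoform values carry the error of dividing shared reads, and 13 of the 27 calls were lost when at least 1 library was left out. Each library took 3 (control replicate 1) to 12 (HOTAIR-N siRNA replicate 3) of these calls with it, and the edgeR adjusted p of the lost calls was between 0.0505 and 0.125.

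Of the PHF19 isoforms, the short one passed the test. NM_001009936, of 990 nt, had 25.5, 22.8 and 24.4 TPM with HOTAIR-N siRNA, against 65.3, 56.9 and 55.3 TPM with control siRNA, and fell by 1.23 in log2 terms (edgeR adjusted p = 0.00172). Its share of PHF19 was 69.2%, 65.4% and 68.0% with HOTAIR-N siRNA, against 78.5%, 75.0% and 77.3% with control siRNA. The longer coding isoforms NM_001286840 and NM_001286842 had log2 fold changes of -0.54 and -0.74, overlapped between the groups and did not pass. No test of isoform use passed for PHF19 (adjusted p = 0.534 in edgeR's gene-level F test and 0.341 in limma), so its isoforms were not shown to change unequally. The site printed above for PHF19 lies in the 99 nt 3′ UTR of the short isoform, and no word was found in those of these longer ones.

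In YAF2, a gene without a call, isoforms moved in opposite directions. NM_001190980 had 1.48, 1.36 and 1.58 TPM with HOTAIR-N siRNA, against 0.44, 0.68 and 0.44 TPM with control siRNA, and rose by 1.56 in log2 (edgeR adjusted p = 0.00996). NM_005748, the most abundant YAF2 isoform, had 3.45, 3.21 and 2.86 TPM with HOTAIR-N siRNA, against 4.15, 4.98 and 4.73 TPM with control siRNA, and fell by 0.48 (edgeR adjusted p = 0.0439). That call was lost without any 1 of the 6 libraries, with an edgeR adjusted p of 0.0547 to 0.125, and the rise of NM_001190980 was kept without each of them. The falling isoform holds the word ACCAATA in its 3′ UTR and the rising one holds neither word. The tested isoforms NM_001190979 and NM_001320080 hold the same word and did not pass, with log2 fold changes of -0.21 and 0.14. The rising isoform rests on 129, 122 and 148 expected counts with HOTAIR-N siRNA, against 40.0, 58.6 and 41.0 with control siRNA.

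**Figure D4:**
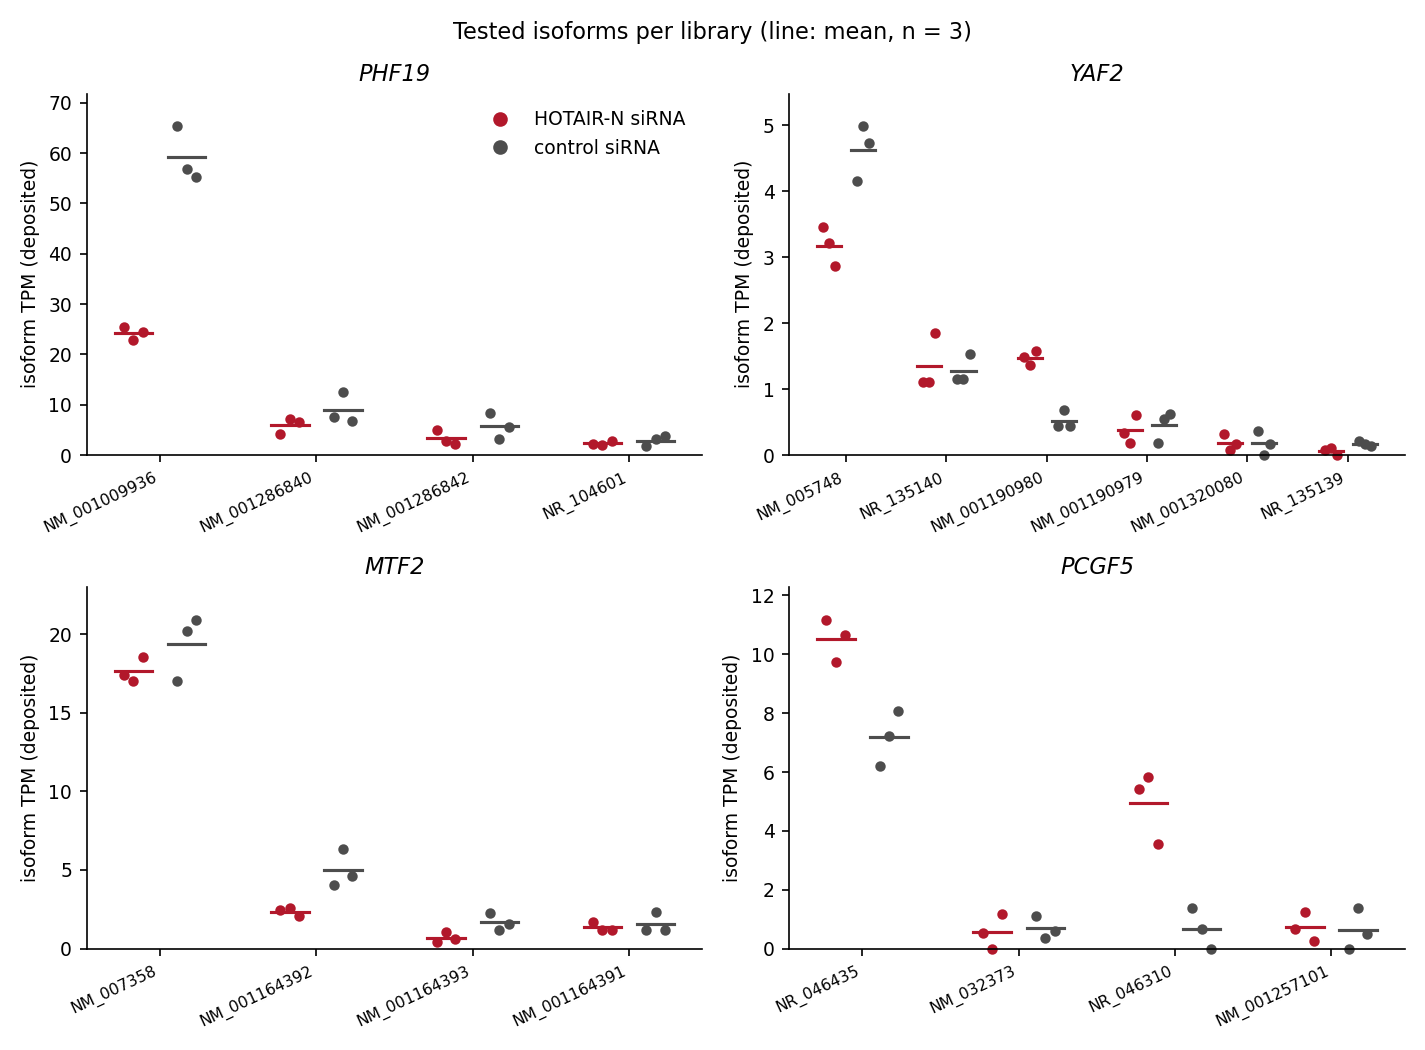
TPM (y axes, from 0) of the tested isoforms of PHF19, YAF2, MTF2 and PCGF5 in each library, HOTAIR-N siRNA to the left of control siRNA, with group means (n = 3). The short PHF19 isoform NM_001009936 and the YAF2 isoform NM_005748 are lower with HOTAIR-N siRNA, YAF2 NM_001190980 is higher, and the PCGF5 transcripts whose names begin with NR are higher, though neither of these passed the test.

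The remaining isoform calls followed their genes. MTF2 NM_001164392 had 2.43, 2.57 and 2.07 TPM with HOTAIR-N siRNA, against 4.02, 6.34 and 4.61 TPM with control siRNA, and fell by 1.02, while the main isoform NM_007358 had a log2 fold change of -0.08, with overlapping groups, and did not pass. JARID2 NM_001267040 had 7.29, 10.0 and 8.44 TPM with HOTAIR-N siRNA, against 5.10, 4.53 and 4.47 TPM with control siRNA, and rose by 0.92, while NM_004973 rose by 0.34. The call of NM_004973 (edgeR adjusted p = 0.0417) was lost without HOTAIR-N siRNA replicate 1 or 3, or without any 1 control library. SUZ12 fell in both of its isoforms, NM_015355 by 1.00 and NM_001321207 by 1.45 on the log2 scale.

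SCMH1 fell in NM_001172219 by 2.06, in NM_001172220 by 1.99 and in NM_001172221 by 1.45, each under 5 TPM in every library. Its other tested isoforms with the same 3′ UTR word did not pass. Their log2 fold changes were -0.10 (NM_001031694), -0.33 (NM_012236), -1.79 (NM_001350667) and 1.17 (NM_001172218). AEBP2 fell in NM_001267043 by 0.93 and in NM_153207 by 0.60. EZH2 NM_001203247 fell by 0.66, KDM2B NM_032590 by 0.66, RNF2 NM_007212 by 0.56, CBX2 NM_005189 by 0.46, ASXL2 NM_018263 by 0.37 and RBBP4 NM_005610 by 0.25. RING1 rose by 0.57, CBX8 NM_020649 by 0.48, PHC1 NM_004426 by 0.40, EZH1 NM_001991 by 0.37 and PCGF3 NM_006315 by 0.35. Besides YAF2 NM_005748, calls lost without at least 1 library were those of MTF2 NM_001164392, JARID2 NM_004973, SUZ12 NM_001321207, and SCMH1 NM_001172220 and NM_001172221. The named isoforms of AEBP2, RNF2, CBX2, RBBP4, CBX8 and PCGF3 also lost their calls in this way.

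Whether isoforms of one gene differed in their change was tested in 23 of the genes. No Polycomb gene passed edgeR's diffSpliceDGE test with Simes p-values (lowest adjusted p = 0.61, and 1 gene, EED, under an unadjusted 0.05), where 3.1% of 7523 genes passed. Its gene-level F test called EED and MTF2, with edgeR adjusted p-values of 0.0440 and 0.0380. In limma's diffSplice test, an alternative added after the data were seen, YAF2, MTF2 and JARID2 passed with adjusted p-values of 0.000686, 0.0324 and 0.0498, where 14.8% of all genes passed. The isoform differences within these genes thus depend on the test.

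Read by the words in the 3′ UTR, SUZ12, AEBP2, PHF19, CBX2, SCMH1 and RYBP fell, PHC3 and YAF2 did not pass, and none of the 8 genes rose. The median log2 fold change of the 8 was -0.59. Of the 25 Polycomb genes without a word, 9 rose, 7 fell and 9 did not pass, with a median of 0.04. Over all tested genes that were searched, 52.3% of those with a word were lower and 17.9% higher, with a median of -0.25, and 27.8% of those without were lower and 30.3% higher, with a median of 0.02. EZH2, KDM2B and RNF2 fell by over 0.5 on the log2 scale and hold neither word. Among tested coding isoforms whose 3′ UTR was searched, with RING1 counted once, 19 held a word, of which 10 fell, in 6 genes, and none rose. Another 52 held no word, of which 6 fell and 8 rose, in 13 genes. The tested coding isoforms EED NM_001330334, CBX7 NM_001346744 and CBX7 NM_175709 were not searched and are left out. Their log2 fold changes were -3.27, -0.84 and 0.25, and none of them passed. Over all tested isoforms 10.1% were lower and 9.39% higher, and the share among all isoforms with a word was not counted. Isoforms of one gene that hold a word share the same site, so they do not count separately.

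**Figure D5:**
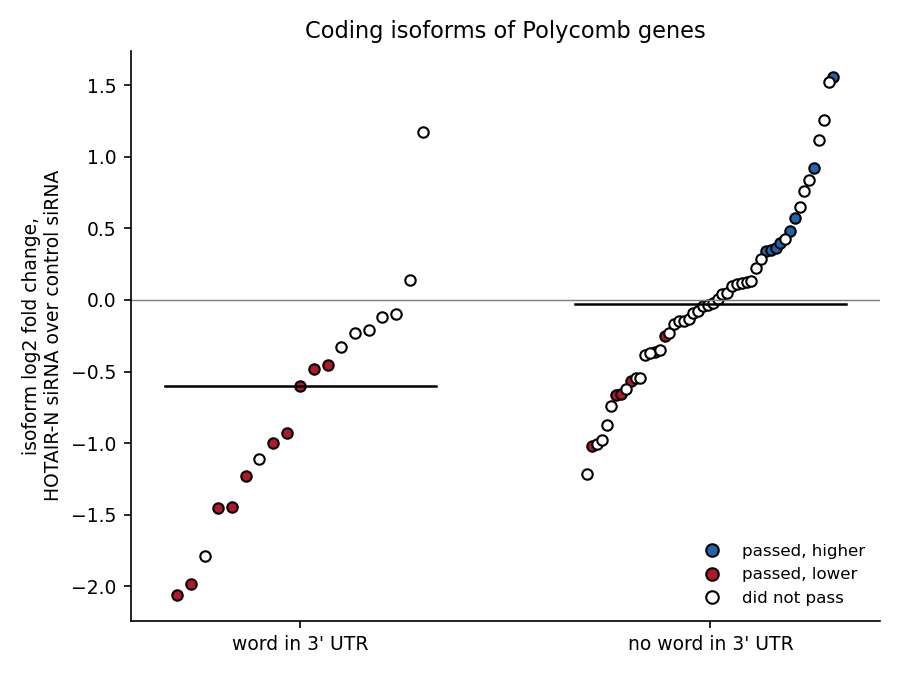
Log2 fold change (y axis, HOTAIR-N siRNA over control siRNA) of the tested coding isoforms of the Polycomb genes whose 3′ UTR was searched, 19 with and 52 without a word, sorted within each set. RING1 is counted once. Filled points passed edgeR's test and the line is the median, at -0.60 with a word and -0.03 without.

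Other genes of the same pathways were counted from lists chosen with earlier results known. Of 30 tested further partners of PRC2 and PRC1, 5 rose, 11 fell and 14 did not pass (53.3% called, against 57.5% of all tested genes), with a median log2 fold change of -0.08. The lowest p-values belonged to DCAF7 (-0.52) and SKP1 (-0.40), subunits of variant PRC1 complexes, and to TFDP1 (-0.37) and L3MBTL2 (-0.49) of the PCGF6 complex, all lower. Of 10 tested PR-DUB partners and H2A deubiquitinases, 3 rose, 6 fell and 1 did not pass (90% called, against 57.5% of all tested genes), with a median of -0.24. MBD5, a methyl-CpG-binding domain protein that binds PR-DUB, had 1.04, 0.77 and 0.99 TPM with HOTAIR-N siRNA, against 6.02, 6.49 and 6.06 TPM with control siRNA, and fell by 2.69 in log2 terms (edgeR adjusted p = 6.73e-11). The transcription factor FOXK2 fell by 0.58, and KDM1B and the H2A deubiquitinase USP16 rose by 0.42 and 0.33.

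Of 19 H3K27 demethylases and trithorax-group genes, whose products oppose Polycomb silencing, 2 rose, 9 fell and 8 did not pass (57.9% called, against 57.5% of all tested genes), with a median of -0.10. KDM6B, an H3K27 demethylase, rose by 0.66, while NCOA6 of the MLL3 and MLL4 complexes fell by 1.12 and the H3K36 methyltransferases NSD2 and NSD3 by 1.02 and 0.91. Of 25 tested textbook targets of Polycomb silencing, 7 rose, 7 fell and 11 did not pass (56%, against 57.5% of all genes), with a median of 0.02. CCND2 (0.71), a cyclin of the G1 phase, and CDKN2B (0.59), an inhibitor of cyclin-dependent kinases, rose and GATA2 (-0.46), a transcription factor, fell.

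Of 20 markers of proliferating cells, a state in which EZH2 is known to be high, 15 fell, 1 rose and 4 did not pass (80% called, against 57.5% of all tested genes, of which 28.8% fell), with a median log2 fold change of -0.31. TOP2A fell by 0.70, BUB1 by 0.57, MCM6 by 0.51 and FOXM1 by 0.51, while E2F1 rose by 0.43 and PCNA, MCM2, TYMS and UHRF1 did not pass. The 33 Polycomb genes together took 0.187%, 0.187% and 0.186% of expected counts with HOTAIR-N siRNA, against 0.200%, 0.209% and 0.206% with control siRNA. The part of the proliferation markers in the Polycomb values was not tested.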

How the data were processed

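Per the submitters' processing notes, reads were processed with STAR 2.6.0c, RSEM 1.3.0 and the build hg19. The annotation release is not given in the sources used here, and neither is the setting for strand. Per the file headers the authors' tables hold expected counts (RSEM's estimates, in which shared reads are divided), and 10.9% of gene and 42.2% of isoform values were not whole. The deposited TPM and FPKM are length-adjusted and scaled within each library, and the deposited isoform percent is the share of a gene's TPM. FPKM was not analysed. Overlapping genes and close copies are uncertain, and counts of this depth limit the precision of low isoforms.

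Rounded expected counts were entered in edgeR 4.0.16 under R 4.3.3 (filterByExpr by group, TMM, robust quasi-likelihood test, Benjamini-Hochberg over all genes or isoforms, threshold 0.05), with group as the only term. Isoform use was tested with edgeR's diffSpliceDGE, and ratios with exact permutation tests. The steps were tested on simulated data. Alternatives used other scalings and filters, DESeq2 1.42.0, limma-voom and diffSplice in limma 3.58.1, a fold of 1.5, the replicate number as a block, and each library left out. Log2 fold changes are HOTAIR-N siRNA over control siRNA.

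The members and gene lists were chosen with earlier results of these data known. All 33 members are named. Values of every library are given for those past the threshold with an absolute log2 fold change of at least 0.5, the 2 with the largest p, and those with a called isoform or isoform use, and the 4 smallest p-values name genes of other lists. One gene that this rule takes is not reported here. Reference coordinates (GRCh38) were not joined to the hg19 tables, and isoforms were paired with GENCODE transcripts by name.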

Additional observations from a re-analysis of the deposited data

How the results depend on the processing

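Of the 22 Polycomb gene calls, 18 held under every alternative other than the test against a fold of 1.5, namely all but PCGF3, CBX6, PHC2 and RYBP. That test called 1700 of all genes, with 0 members higher and 3 lower. EED, not called otherwise, was called higher with upper-quartile scaling (edgeR adjusted p = 0.0477), which made 10 members higher. With a library left out, 6 to 10 members rose and 12 to 14 fell, counts not set beside those over all genes in the same fits. The sign of genes near 0 turned for RBBP7 (0.018 with upper-quartile scaling, 0.017 without scaling, 0.0077 with the stricter filter, -0.047 to 0.033 with a library left out), PCGF1 (-0.021 to 0.109 with a library left out) and YAF2 (-0.089 to 0.013 with a library left out), and none of these values passed.

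Isoform calls were less stable, and 5 of 27 held throughout. With a library left out, 3551 to 5647 isoforms were called in all and 8 to 15 of the Polycomb isoforms fell, and DESeq2 called 9864. For isoform use the gene-level F test called 786 genes with 2 members, limma's diffSplice, chosen after seeing the data, 1115 genes with 3 members, and leaving out a library 124 to 186 genes with 0 members. The cause of these shifts was not tested.

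Replicate numbers are shared by the groups, and the deviations of same-numbered libraries correlated at -0.12, 0.02 and -0.04. Those of differently numbered libraries correlated at -0.14 to 0.17. These values show no sign of pairing by number, but with 3 libraries a group they cannot exclude it. With the replicate block 6 Polycomb genes rose and 13 fell, counts not set beside those over all genes in that fit. Of the Polycomb isoforms 1 rose and 5 fell among 2012 called in all, and 103 genes were called for isoform use. For the ratios the block leaves the mean difference as it is, and the exact sign-flip test over 3 pairs cannot go below 0.25.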
